A study of Mus musculus with 12 samples.

Results

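Adult mouse cells sorted as pancreatic beta cells were compared with the same kind of cells from newborns at postnatal day 1 (P1), gene by gene. The comparison was chosen by the age in the sample titles and used 6 of the 12 samples of the series, 3 adult and 3 P1. Of 16593 genes with a named probe, 9181 had a probe above background and were tested. Every difference is coded adult minus P1.

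The mice were heterozygous for a Pdx1-GFP transgene crossed to the ICR strain. Both ages carried the transgene, and no sample without it entered the comparison. Islets of Langerhans were dissociated with trypsin, cells with green fluorescence were sorted, and their total RNA was measured on Illumina bead arrays. The adults were 5 weeks old. Green fluorescence under the Pdx1 promoter marks cells that use this promoter, which in the islet are mainly beta cells but can include other endocrine cells. The labels do not say whether samples of 1 age came from separate animals or litters, so p-values measure the spread between these samples, which may be technical.

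Beta cells release insulin when blood glucose rises. In rodents they divide fast around birth and respond poorly to glucose, and they acquire the adult threshold for secretion over the weeks in which the pups move from milk to a diet rich in carbohydrate. Making a secreted hormone in bulk loads the endoplasmic reticulum, where new proteins fold, and beta cells depend on the chaperones and stress sensors of that compartment.

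Levels are given as log2 signals after background correction and quantile normalization, so a difference of 1 is a change of 2-fold, and differences between the means of 3 samples per age carry the standard error (SE) of a limma fit whose spread was estimated over all 12 samples of the series. A gene is said to have risen or fallen where its Benjamini-Hochberg adjusted p in that fit was under 0.05. Levels at postnatal day 10 (P10, 2 samples) are set beside the others as values. The comparisons of P10 with P1 and of adults with P10 share their samples with the one described here.

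Between 41.4% and 45.1% of probes lay above background on the P1 and adult arrays. Across genes, P1 samples correlated with each other at 0.980 to 0.988, adults at 0.977 to 0.985, and P1 samples with adults at 0.905 to 0.930. Ins2, which encodes insulin, sat at the top of the measuring range in every sample, at 13.58 in each of the 3 P1 samples and at 13.53, 13.42 and 13.58 in the adults. A difference in Ins2 could therefore not be read from these arrays. Pdx1, the transcription factor whose promoter drives the sort, measured 8.91, 8.69 and 9.07 at P1 and 9.07, 8.65 and 8.89 in adults, with an adjusted p of 0.93. Beta cell genes were thus present at both ages, and so were those of other endocrine cells, such as Sst, the somatostatin of delta cells, at 13.24 to 13.39 in P1 and 12.52 to 13.39 in adults.

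3 libraries stood apart within their age. Markers of acinar cells, the enzyme-making cells of the exocrine pancreas, averaged 5.25, 6.22 and 7.01 in P1 replicates 1, 2 and 3, and 9.23, 10.54 and 9.47 in the adults. Of 32 such markers tested, 29 had their highest P1 value in replicate 3 and 28 their lowest in replicate 1. Markers of stromal cells averaged 4.89, 5.11 and 6.22 at P1, and all 14 were highest in P1 replicate 3. Adult replicate 3 was low in genes of other endocrine cells. Gcg, the glucagon of alpha cells, measured 9.36 there against 13.42 and 13.24 in the other adults, and Ppy, pancreatic polypeptide, measured 8.85 against 12.34 and 11.92. Without both P1 replicate 3 and adult replicate 3, 2774 genes passed the test in place of the 3486 given below.

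**Figure D1:**
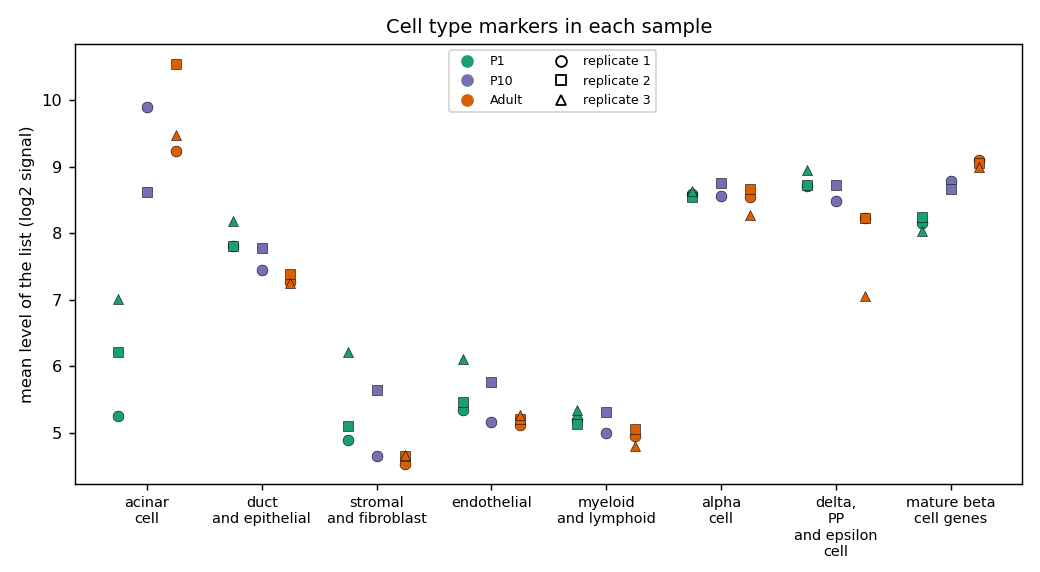
Mean log2 signal of the markers of each cell type (y axis) in each P1, P10 and adult sample, with colour for age and shape for replicate number. The acinar mean lies between 5.25 and 7.01 at P1 and between 9.23 and 10.54 in adults, P1 replicate 3 is the highest P1 sample for stromal markers at 6.22, and adult replicate 3 is the lowest for delta, PP and epsilon markers at 7.06.

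Exocrine genes held most of the largest rises. 30 of 32 acinar markers rose in adults (93.8%, against 18.1% of all genes tested), 29 of them at least 2-fold (against 3.27%), with a median difference of 4.06 where that of all genes was -0.01. Among the 15 largest rises of the whole comparison, 13 were pancreatic enzymes or granule proteins. Cela1, an elastase, measured 5.78, 6.39 and 6.86 at P1, 10.86 and 9.86 at P10, and 11.28, 12.49 and 11.74 in adults. The 3 adult values of Ctrl, a chymotrypsin-like protease, were 10.41, 11.81 and 11.08, all above its P1 values of 4.96, 5.46 and 6.37. Amy2a5, pancreatic amylase, rose by 4.52 ± 0.69, and its P1 values spread from 5.48 to 8.57. The trypsin genes Prss2, Try4 and Try10 are near-identical copies, so their probes may not be specific. Nr5a2 and Prss3 did not pass, at -0.15 and 0.86. These measurements are of a sorted bulk sample, in which fewer cells of a type and less RNA per cell cannot be told apart.

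Because the acinar level moved with age, the fit was repeated with each sample's acinar mean as an added term. Standard errors then grew by a median factor of 2.41, and 367 genes passed, 165 higher and 202 lower. How far acinar RNA contributes to any other difference below was not tested beyond that fit, whose counts or medians are given beside the main gene groups. A call lost under this term can go with a difference of unchanged size, since the errors are larger.

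Over all genes tested, 3486 passed (38.0%), of which 1658 were higher in adults (18.1%) and 1828 lower (19.9%). The shares of risers and fallers in each gene list below are to be read against these. A difference of at least 2-fold was reached by 669 genes (7.29%), 300 of them higher and 369 lower (4.02%). The values of the 3 adults and the 3 P1 samples did not overlap for 4417 genes (48.1%).

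**Figure D2:**
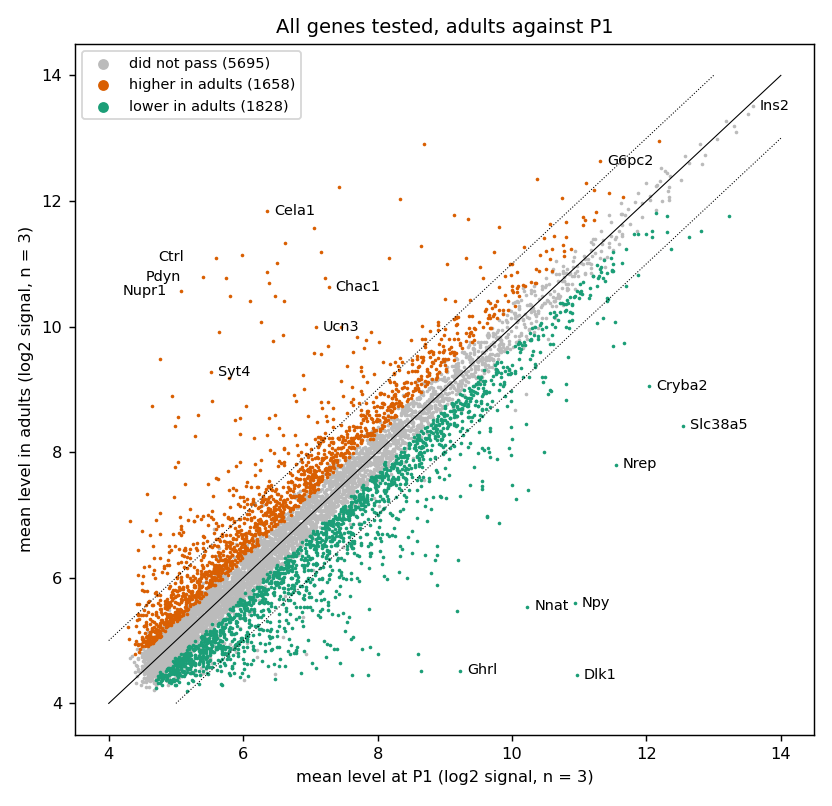
Mean log2 signal at P1 (x axis) against that in adults (y axis) for the 9181 genes tested, 3 samples per age, coloured by the outcome of the limma test, with a solid line at equal levels and dotted lines at 2-fold. Dlk1, Npy, Ghrl and Nnat lie lowest below the line, Nupr1, Pdyn, Cela1 and Ctrl highest above it, and Ins2 lies on it at the top of the range.

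Genes that mark mature beta cells rose. Of 18 listed, 15 were tested and 11 of these were higher in adults (73.3%), with a median of 0.82. Ucn3, which encodes urocortin 3, a peptide stored with insulin, measured 6.80, 7.43 and 7.02 at P1 and 10.14, 10.14 and 9.70 in adults. Its difference of 2.91 ± 0.17 corresponds to 7.52-fold (adjusted p = 1.8e-08), and the P10 samples were already at 9.70 and 9.79. Syt4, a synaptotagmin of secretory vesicles, was at 5.41, 5.55 and 5.60 in P1 and at 9.38, 9.26 and 9.17 in adults, a rise of 13.4-fold (adjusted p = 3e-11). At P10 it lay between the other ages, at 7.72 and 7.89.

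G6pc2, the glucose-6-phosphatase of islets, rose by 1.32 ± 0.21, from 11.15, 11.51 and 11.28 to 12.57, 12.75 and 12.57. Cox6a2, a subunit of cytochrome c oxidase best known from heart and skeletal muscle, rose from 8.25, 7.82 and 8.44 to 10.64, 11.16 and 11.49. Trpm5, a calcium-activated cation channel, rose by 1.39 ± 0.16. Slc2a2, the glucose transporter GLUT2, measured 10, 10.08 and 10.03 at P1 and 10.29, 10.36 and 9.97 in adults, overlapping ranges with an adjusted p of 0.42. Mafa, a transcription factor of insulin and maturity genes, did not pass either, with values of 5.27, 5.46 and 4.97 against 6.2, 4.95 and 5.60. Most of these are near background, as the lowest level above it was 4.85 to 4.97 on the P1 and adult arrays. The receptor for GLP-1, Glp1r, was not above background in any P1 sample and in all 3 adults was, at least 1.14-fold higher (adjusted p = 0.019, and 0.058 without P1 replicate 3). Nnat is the 1 listed gene that fell. With the acinar term, 4 of the 15 were called higher, and the median was 1.44 in place of 0.82.

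In the list of hormones and their processing, 8 of 16 genes rose (50%), with a median of 0.40. Iapp, the amyloid peptide secreted with insulin, rose by 1.29 ± 0.25, from 10.92, 11.20 and 10.14 to 11.98, 11.81 and 12.34, and had reached 12.26 and 11.71 at P10. Ero1b, the oxidase that supplies disulphide bonds during proinsulin folding, measured 9.74, 9.77 and 9.90 at P1 and 11.52, 11.59 and 11.66 in adults. Granule proteins were among the 8. Scg2 and Scg5, which encode secretogranin II and the chaperone 7B2, rose by 1.19 ± 0.26 and 0.94 ± 0.19, Ptprn, the granule membrane protein IA-2, by 0.93 ± 0.14, and Pam, which amidates peptides, by 0.93 ± 0.17. Chga and Chgb, the chromogranins, did not pass, at 0.21 and -0.13. The convertase Pcsk1 was dim on these arrays, at 5.44 to 5.66 in P1 and 5.47 to 5.83 in adults, and did not pass. The zinc transporter of insulin granules, Slc30a8, rose by 0.41 ± 0.13, a call that ended when P1 replicate 2 or 3 or adult replicate 2 or 3 was left out. With the acinar term 1 of the 16 was called higher, at a list median of 0.57.

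Glucose sensing genes showed smaller differences. 5 of 12 rose (41.7%), with a median of 0.26, and 3 did so without P1 replicate 3. The acinar term left 1 call and a median of 0.30. They included Cacna1d and Cacnb2, subunits of the voltage-gated calcium channels that trigger secretion, at 0.34 and 0.54. Abcc8, the sulphonylurea receptor subunit of the potassium channel that closes when ATP rises, measured 9.87, 9.58 and 9.30 at P1 and 9.73, 9.60 and 9.91 in adults (adjusted p = 0.47).

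Peptide hormone genes moved in both directions. Npy, neuropeptide Y, measured 11.22, 11.05 and 10.52 at P1, 7.59 and 7.79 at P10, and 6.51, 5.35 and 4.94 in adults. Its difference of -5.33 ± 0.30 is a fall of 40.1-fold (adjusted p = 1.5e-08). Only 2 of the 3 adult samples were above background for Npy, so the size of this fold is uncertain. Ghrl, the ghrelin of epsilon cells, was at 9.57, 9.03 and 9.07 in P1, and in the 3 adults, at 4.32, 4.62 and 4.61, it was not above background, which makes it at least 19.4-fold lower (adjusted p = 2.5e-06). Gal, galanin, a peptide that inhibits insulin release, fell by 1.68 ± 0.19, and its P10 values of 5.13 and 4.84 were below those of the adults.

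Pdyn, the precursor of dynorphin opioid peptides, went the other way. It measured 5.58, 5.02 and 5.62 at P1 and 10.66, 10.28 and 11.44 in adults, a rise of 41.8-fold (adjusted p = 3.9e-09), and at P10 it was at 7.04 and 7.24. Of the 16 peptide genes tested, 3 rose (Pdyn, Ucn3 and Iapp) and 6 fell. Pyy, peptide YY, fell by 1.47 ± 0.44, with adults at 12.52, 12.60 and 10.16, and its adjusted p of 0.017 became 0.058 without P1 replicate 2. Gcg gave -0.33 with all samples and 0.99 without adult replicate 3 (adjusted p = 0.76 and 0.051). Ppy and Sst did not pass, and Sst turned from -0.23 to 0.06 without that sample. Sst, Pyy and Gcg reached 13.39, 13.42 and 13.42 in P1 or adult samples. Those levels are close to the top of the measuring range, where differences may be understated. The acinar term left 2 peptide genes higher and 3 lower, and their median moved from -0.28 to -0.93.

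**Figure D3:**
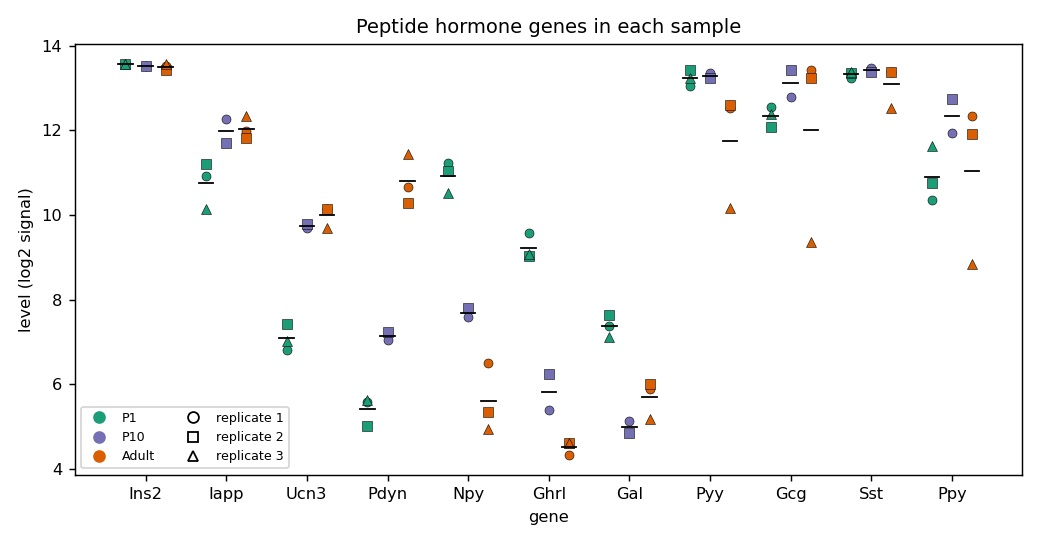
Log2 signal (y axis) of 11 peptide hormone genes in every P1, P10 and adult sample, with bars at the mean of each age and shapes for the replicate number. Npy, Ghrl and Gal are high at P1, Ucn3 and Pdyn are high in adults, Ucn3 reaches its adult range by P10 where Pdyn does not, and adult replicate 3 lies apart for Pyy, Gcg and Ppy.

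Among markers of the other islet cells, 5 of 9 alpha cell genes rose (55.6%) and 2 fell, and 3 rose without adult replicate 3. The risers were Dpp4, a peptidase that degrades incretins, at 1.53 ± 0.14, Slc7a2, Ttr, Cltrn and Loxl2. Slc7a2 is also counted among the mature beta cell genes. Irx2 fell, at -0.71 ± 0.26, and Gcg did not pass. Slc38a5, an amino acid transporter, was at 12.52, 12.52 and 12.57 in P1 and at 7.97, 8.28 and 9.01 in adults, which makes it 17.4-fold lower (adjusted p = 2.6e-09). Of 9 delta, PP and epsilon genes, 4 fell (44.4%) and 1 rose. Rbp4, a retinol carrier, fell by 1.52 ± 0.39, with adult replicate 3 at 6.61 and the other adults at 8.6 and 8.73. Hhex, a delta cell transcription factor, was likewise lowest in that sample, at 5.91 against 7.61 and 7.93, and did not pass. Under the acinar term 1 alpha cell gene was higher and 1 lower, with a median of 0.33, and 1 of the delta, PP and epsilon genes was lower, with a median of -1.57 in place of -0.46.

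Most beta cell transcription factors differed little. Of 19 tested, 12 did not pass, 5 fell (26.3%) and 2 rose (10.5%), shares close to those of all genes. Nkx6-1 was at 9.81, 9.83 and 9.56 in P1 and 9.53, 9.19 and 9.50 in adults (adjusted p = 0.078), and Neurod1 at 8.23 to 8.35 against 8.07 to 8.52. Myt1, a zinc finger factor of endocrine differentiation, fell by 1.5 ± 0.11, from 9.52, 9.46 and 9.68 to 7.94, 8.17 and 8.06. Nkx2-2 fell by 0.62 ± 0.14 and Foxa2 rose by 0.51 ± 0.11. The list median was -0.13, and -0.08 with the acinar term.

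Genes of the endocrine progenitor, the fetal cell that gives rise to all islet cells, fell in 7 of 15 cases (46.7%), with a median of -0.52. Cdkn1a rose, by 0.67 ± 0.21, a call that ended without P1 replicate 1 or adult replicate 2 or 3. Mfng, a glycosyltransferase that modifies Notch receptors, measured 8.77, 8.76 and 8.37 at P1, 6.85 and 7.22 at P10, and 4.53, 4.96 and 4.05 in adults, a fall of 17.4-fold (adjusted p = 2.5e-09). Only 1 adult sample was above background for Mfng, so the size of this fold is uncertain. Igfbpl1 was at 6.44, 6.55 and 6.43 in P1 and not above background in any adult, at least 2.88-fold lower. Hes6, a Notch-related repressor, fell by 0.98 ± 0.11. Neurog3, the factor that starts endocrine differentiation, was at 6.76 to 7.26 in P1 and at 6.82, 6.58 and 4.99 in adults, and did not pass (adjusted p = 0.065). The acinar term left 2 of the 15 lower, at a median of -0.37.

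The machinery of exocytosis was divided. 7 of 28 genes rose (25%) and 9 fell (32.1%), against 18.1% and 19.9% of all genes tested, with a median of 0.01. Beside Syt4 the risers were Cadps, Cadps2, Rab3a, Rab3d, Snap23 and Syt5, none of which reached 2-fold. Rab3a and Rab3d, small GTPases of secretory granules, rose by 0.81 ± 0.11 and 0.83 ± 0.17. Stx1a, the syntaxin of the plasma membrane fusion complex, measured 8.25, 8.47 and 8.23 at P1 and 6.19, 6.24 and 5.86 in adults, a fall of 4.67-fold (adjusted p = 2.5e-08). Doc2b, a calcium sensor of exocytosis, was above background in all 3 P1 samples at 7.29, 6.70 and 6.33 and in no adult, at least 3.55-fold lower (adjusted p = 5.3e-06). Vamp3 fell by 1.11 ± 0.12. The acinar term left 1 gene of the list higher and 2 lower, at a median of -0.11.

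Ion channels were also mixed, with 6 of 19 higher (31.6%) and 4 lower (21.1%), where 18.1% of all genes tested rose and 19.9% fell. Abcc8, Cacna1d, Cacnb2 and Trpm5 are also counted among the glucose sensing genes. Cacna1h, a low-threshold calcium channel, fell by 1.42 ± 0.27, and Itpr3, which releases calcium from the endoplasmic reticulum, by 1.62 ± 0.14. Kcnip1, a potassium channel partner, rose by 0.85 ± 0.21. Rem2, a GTPase that inhibits calcium channels and is no member of the list, was at 9.55, 9.17 and 8.87 in P1 and 6.31, 6.93 and 5.63 in adults, 7.52-fold lower (adjusted p = 1.1e-06).

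Imprinted and fetal growth genes held the largest fall. Dlk1, a paternally expressed Notch-like ligand, measured 11.05, 10.93 and 10.90 at P1, 6.88 and 6.51 at P10, and 4.39, 4.50 and 4.45 in adults. No adult sample was above background, which makes it at least 64.5-fold lower (adjusted p = 8.2e-14). Nnat, neuronatin, which aids signal peptide cleavage of preproinsulin, was at 10.67, 10.49 and 9.52 in P1 and at 5.93, 5.67 and 5.01 in adults, 25.9-fold lower (adjusted p = 2.5e-07). Both genes lay between the other ages at P10.

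In all, 11 of the 18 tested fell (61.1%), with a median of -0.96. Grb10, an adaptor that restrains insulin and growth factor receptors, fell by 2.92 ± 0.17, and Cdkn1c, the cyclin-dependent kinase inhibitor p57, by 2.35 ± 0.16. Igf2 fell by 2.10 ± 0.48, with P1 values of 9.05, 9.32 and 10.31, highest in the replicate with the most stromal signal. Its call ended without P1 replicate 3 and adult replicate 3, at -1.42 (adjusted p = 0.06). The fetal RNA-binding proteins that carry its message fell too. Igf2bp3 was at 7.98, 7.79 and 7.81 in P1 and at background in every adult, at least 7.52-fold lower, and Igf2bp1 at least 2.00-fold lower. Snrpn and Impact rose, by 1.29 ± 0.15 and 0.50. In the acinar fit 5 of the 18 were called lower, and the median was -1.16 in place of -0.96.

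Genes of cell division fell from P1 to adults. Of 46 mitosis and spindle genes tested, 31 were lower in adults (67.4%) and 2 higher, with a median of -0.70. Cenpa, the histone variant of the centromere, measured 9.53, 8.58 and 8.25 at P1, 8.58 and 8.84 at P10, and 5.44, 6.4 and 6.4 in adults, a fall of 6.53-fold (adjusted p = 1.2e-05). The P10 samples lay within the P1 range. Cdc20, the activator of the anaphase-promoting complex, went from 7.89, 6.82 and 6.70 to 4.88, 5.45 and 6.09, with 7.14 and 7.38 at P10. Prc1, which bundles the central spindle, and Plk1, a mitotic kinase, fell by 1.51 ± 0.28 and 1.46 ± 0.31, and the list was highest in P1 replicate 1, where it averaged 6.70 against 6.06 and 6.13. The other exception beside Bub3 was Spc25, a kinetochore protein, which rose by 1.44 ± 0.18 and lies beside G6pc2 on chromosome 2. Whether its probe reads Spc25 alone was not tested.

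Replication genes moved less. 14 of 42 S phase genes fell (33.3%, against 19.9% of all genes tested) with a median of -0.27, and 9 without P1 replicate 1. Uhrf1, which keeps DNA methylation through replication, was at 7.67, 6.38 and 6.90 in P1, 8.54 and 8.09 at P10, and 5.28, 5.50 and 6.48 in adults. Its P10 values exceeded all 6 others, and the P1 and adult ranges overlapped by 1 sample although the gene passed (-1.23 ± 0.31, adjusted p = 0.0059). Mcm5, a subunit of the replicative helicase, and Cdt1, which helps to load it, were also highest at P10, at 7.86 and 7.64 and at 7.06 and 6.73. With the acinar term, limma called 0 mitosis and 0 S phase genes lower after adjustment, 7 and 2 at an unadjusted p under 0.05, and the mitosis median was -0.33 in place of -0.70. The S phase median, over all 42 genes tested, was -0.26 against -0.27. Of those that lost their call, Mcm5 went from -0.85 to -0.26 and Orc6 from -0.83 to -0.41. Mcm2 went from -0.49 to -0.47 and Pola2 from -0.62 to -0.72. The Mcm2 call (limma adjusted p = 0.044) also ended without P1 replicate 1 or 3 or adult replicate 1 or 2. That of Mcm5 also ended without P1 replicate 1.

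Cyclins and inhibitors of G1 went in both directions, 5 of 21 higher and 4 lower. These shares are close to those of all genes tested, 18.1% and 19.9%. Ccnd1 and Ccnd2, the D cyclins that open the cell cycle, were higher in adults, Ccnd1 at 7.58, 7.70 and 7.36 against 9.36, 9.52 and 9.25, and Ccnd2 at 9.45, 9.21 and 8.83 against 10.32, 10.19 and 9.88. Cdk2, the kinase of S phase entry, fell by 1.05 ± 0.15. The 5 higher calls became 2 or 3 without P1 replicate 2, adult replicate 2 or adult replicate 3.

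The 300 bases around the start of a mitotic gene (250 before and 50 after) were searched for the cell cycle homology region, TTTGAA on either strand, an element of promoters active late in the cell cycle. It occurred in 27 of the 37 listed genes with a sequence (73%) and in 19 of the 25 that fell (76%), against 13.9% of all genes tested with a sequence. The CCAAT box, CCAAT, was in 17 of those 25 (68%) and 43.6% of all genes tested. For S phase genes the E2F site, TTTNNCGC, was in 13 of 35 (37.1%) and in 6 of the 14 that fell, against 9.59% of all genes tested. A match describes these letters and is not a site of binding. Here and for the elements searched below, an excess over all genes describes the members of a list and not their change with age. The windows of the mitotic genes named first are shown because their genes fell most and each holds 1 match, in capitals, at chr5:30666636-30666935 on the forward strand for Cenpa and chr4:118437294-118437593 on the reverse strand for Cdc20 (RefSeq, GRCm38.p6, written 5′ to 3′ along the gene).
Cenpa: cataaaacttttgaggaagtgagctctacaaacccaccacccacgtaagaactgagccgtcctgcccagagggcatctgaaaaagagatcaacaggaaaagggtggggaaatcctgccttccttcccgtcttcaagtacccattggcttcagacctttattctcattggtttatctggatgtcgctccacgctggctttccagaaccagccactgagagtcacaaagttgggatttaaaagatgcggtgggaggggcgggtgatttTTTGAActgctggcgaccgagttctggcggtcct
Cdc20: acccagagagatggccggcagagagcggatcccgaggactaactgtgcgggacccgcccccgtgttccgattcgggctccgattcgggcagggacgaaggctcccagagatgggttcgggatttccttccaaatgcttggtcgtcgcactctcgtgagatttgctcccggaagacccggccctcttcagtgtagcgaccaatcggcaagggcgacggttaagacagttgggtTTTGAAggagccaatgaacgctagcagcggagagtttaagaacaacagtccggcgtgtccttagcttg

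Genes of the ATF4 pathway rose in adults. ATF4 is the transcription factor of the integrated stress response, translated when the initiation factor eIF2 is phosphorylated, and its targets serve amino acid supply, one-carbon metabolism and the choice between recovery and death. Of 29 tested, 17 were higher (58.6%) and 4 lower (13.8%), with a median of 0.64, and 10 rose at least 2-fold. Nupr1, a small stress-induced chromatin protein, measured 4.70, 4.95 and 5.56 at P1, 6.39 and 5.91 at P10, and 10.14, 10.88 and 10.65 in adults. Its rise of 44.9-fold (adjusted p = 5.2e-10) was the largest outside the exocrine genes. Chac1, an enzyme that breaks down glutathione, was at 7.27, 7.39 and 7.16 in P1, 6.65 and 6.92 at P10, and 9.81, 11.15 and 10.92 in adults, 10.2-fold higher (adjusted p = 6.1e-07). For Chac1 the P10 samples lay below those of P1.

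Amino acid and folate genes were among the risers. Asns, asparagine synthetase, measured 9.41, 9.33 and 9.24 at P1 and 11.00, 11.18 and 11.09 in adults. Aldh1l2 and Mthfd2, mitochondrial enzymes of one-carbon metabolism, rose by 3.53 ± 0.18 and 1.89 ± 0.13, and Psat1, of serine synthesis, by 1.75 ± 0.22. The transcription factor Atf5 was at 8.52, 8.6 and 8.79 in P1 and 11.31, 11.25 and 11.29 in adults. Atf4 itself rose by 0.64 ± 0.16, from 6.92, 7.04 and 6.91 to 7.13, 7.79 and 7.85, and its adjusted p of 0.0069 became 0.077 without P1 replicate 3 and adult replicate 3. Ddit3, the factor CHOP, rose by 1.01 ± 0.19, and Eif4ebp1, which holds back translation, by 1.37 ± 0.19.

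The 4 that fell were Atf3, Ppp1r15a, Cebpb and Stc2. Atf3, which is also an immediate early gene, was at 6.08, 6.06 and 7.24 in P1 and in no adult above background, at least 2.86-fold lower (adjusted p = 0.0027). Ppp1r15a, the phosphatase subunit GADD34 that reverses the eIF2 block, fell by 1.15 ± 0.30. Its call ended without P1 replicate 3 and adult replicate 3, at -0.75 (adjusted p = 0.11). Of the cytosolic aminoacyl-tRNA synthetases, which load amino acids for translation and include ATF4 targets, 6 of 19 rose (31.6%), among them Mars1 by 1.53 ± 0.11 and Nars by 1.32 ± 0.12, and 2 fell. With the acinar term, 6 of the 29 ATF4 genes were called higher, at a median of 0.55 against 0.64, and 2 of the synthetases, at 0.10 against 0.08.

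The element bound by ATF4 with C/EBP partners was searched as TGATGNAA on both strands of the same windows. It was found in 8 of 25 listed genes with a sequence (32%) and in 6 of the 14 that rose (42.9%), against 2.95% of all genes tested with a sequence. Atf3, which fell, also holds it. The windows of 3 risers are shown with the match in capitals, Nupr1 at chr7:126625421-126625720 on the reverse strand, Chac1 at chr2:119350992-119351291 on the forward strand and Asns at chr6:7693160-7693459 on the reverse strand (RefSeq, GRCm38.p6). Counted from the start of the gene, the match begins at base -110 in Nupr1, -193 in Chac1 and -23 in Asns, and in Nupr1 and Chac1 it reads on the opposite strand.
Nupr1: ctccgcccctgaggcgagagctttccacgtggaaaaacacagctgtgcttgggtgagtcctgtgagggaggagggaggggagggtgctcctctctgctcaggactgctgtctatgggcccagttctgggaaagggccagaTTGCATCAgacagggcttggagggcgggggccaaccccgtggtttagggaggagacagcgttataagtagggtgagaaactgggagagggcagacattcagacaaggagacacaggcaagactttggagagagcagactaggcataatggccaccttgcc
Chac1: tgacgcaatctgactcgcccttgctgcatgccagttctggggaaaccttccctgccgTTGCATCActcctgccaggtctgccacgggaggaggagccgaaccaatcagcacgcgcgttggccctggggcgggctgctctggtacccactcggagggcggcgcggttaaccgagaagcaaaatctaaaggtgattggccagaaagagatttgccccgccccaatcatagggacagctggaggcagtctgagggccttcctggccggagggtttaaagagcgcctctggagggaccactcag
Asns: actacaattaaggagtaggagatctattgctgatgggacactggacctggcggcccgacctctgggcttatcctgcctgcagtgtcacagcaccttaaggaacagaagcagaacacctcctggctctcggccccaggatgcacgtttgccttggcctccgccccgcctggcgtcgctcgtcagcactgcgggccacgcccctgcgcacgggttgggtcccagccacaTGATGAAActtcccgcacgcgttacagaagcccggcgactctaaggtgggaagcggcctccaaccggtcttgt

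Chaperones of the endoplasmic reticulum formed the group with the highest share of risers after the exocrine and mature beta cell genes. Of 34 tested, 23 rose (67.6%) and 1 fell, with a median of 0.62, and 15 rose without P1 replicate 1. Most changes were below 2-fold. After Ero1b, the largest were those of Dnajb9, a co-chaperone, at 9.44, 9.63 and 10.12 against 11.35, 11.19 and 11.02, and Fkbp11, a prolyl isomerase, at 9.40, 9.42 and 9.73 against 10.68, 10.66 and 11.50. Pdia6, a disulphide isomerase, rose by 1.14 ± 0.17, from 7.71, 7.80 and 7.81 to 8.62, 8.74 and 9.40. Hspa5, the main chaperone BiP, passed with 0.70 ± 0.22, but P1 replicate 3 at 9.02 lay inside the adult range of 8.98 to 9.22, and the call ended without P1 replicate 1 or 2 or adult replicate 3. Xbp1, the transcription factor of the unfolded protein response, rose by 0.65 ± 0.11, and Wfs1, the gene of Wolfram syndrome, by 0.74 ± 0.15. Herpud1 and Ero1b belong to more than 1 list. Acinar cells also use these genes at a high level, and their part in these rises was not tested beyond the fit with the acinar term. In that fit, with its larger errors, 1 of the 34 was called higher, and the median was 0.50 in place of 0.62.

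The ER stress response element, CCAAT and CCACG with 9 bases of any kind between them, on either strand, occurred in 9 of 30 listed genes with a sequence (30%) and in 7 of the 21 that rose (33.3%), against 0.160% of all genes tested with a sequence. It is shown in capitals in Pdia6, at chr12:17266339-17266638, and in Ero1b, at chr13:12565633-12565932, both on the forward strand (RefSeq, GRCm38.p6). In Ero1b it reads on the opposite strand.
Pdia6: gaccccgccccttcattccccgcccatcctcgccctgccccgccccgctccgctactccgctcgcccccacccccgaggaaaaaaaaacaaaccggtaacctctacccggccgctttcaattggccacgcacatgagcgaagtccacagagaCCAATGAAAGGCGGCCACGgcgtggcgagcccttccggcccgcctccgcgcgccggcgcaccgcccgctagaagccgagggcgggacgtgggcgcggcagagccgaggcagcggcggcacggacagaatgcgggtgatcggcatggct
Ero1b: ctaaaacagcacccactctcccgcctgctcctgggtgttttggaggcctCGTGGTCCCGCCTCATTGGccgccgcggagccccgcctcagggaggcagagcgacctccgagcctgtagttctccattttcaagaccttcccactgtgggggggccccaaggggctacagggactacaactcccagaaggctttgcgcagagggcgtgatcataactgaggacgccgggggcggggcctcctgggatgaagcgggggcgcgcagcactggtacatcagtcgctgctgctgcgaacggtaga

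Heat shock chaperones of the cytosol and mitochondria rose in 11 of 18 cases (61.1%) and fell in 2, with a median of 0.51. Hsph1, which recharges Hsp70 proteins, measured 7.53, 7.91 and 8.26 at P1, 7.70 and 7.95 at P10, and 9.61, 9.80 and 10.32 in adults, 4.02-fold higher (adjusted p = 2.6e-06). Chordc1, an Hsp90 partner, rose by 1.64 ± 0.14, and Hsp90aa1, Hspa4l and Hspe1 by 0.85 to 0.90. Hspa1a, the strongly inducible Hsp70, did not pass, at -1.28. The acinar term left 1 of the 18 higher, at a median of 0.43. The heat shock element searched, GAA, TTC and GAA with 2 bases of any kind between each, on either strand, was found at the starts of Hsph1, Chordc1, Hspd1 and Hspe1, all of which rose. It occurs in 0.561% of all genes tested with a sequence. Sequences were at hand for 14 of the 18, too few for a share of the list. In Hsph1, at chr5:149636287-149636586 on the reverse strand (RefSeq, GRCm38.p6), it lies at the end of the window on the opposite strand.
Hsph1: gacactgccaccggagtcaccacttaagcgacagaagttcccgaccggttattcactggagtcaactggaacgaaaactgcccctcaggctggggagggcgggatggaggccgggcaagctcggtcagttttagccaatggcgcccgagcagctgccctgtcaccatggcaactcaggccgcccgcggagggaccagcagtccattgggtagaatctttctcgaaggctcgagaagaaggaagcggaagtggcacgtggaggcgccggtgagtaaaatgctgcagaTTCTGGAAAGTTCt

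**Figure D4:**
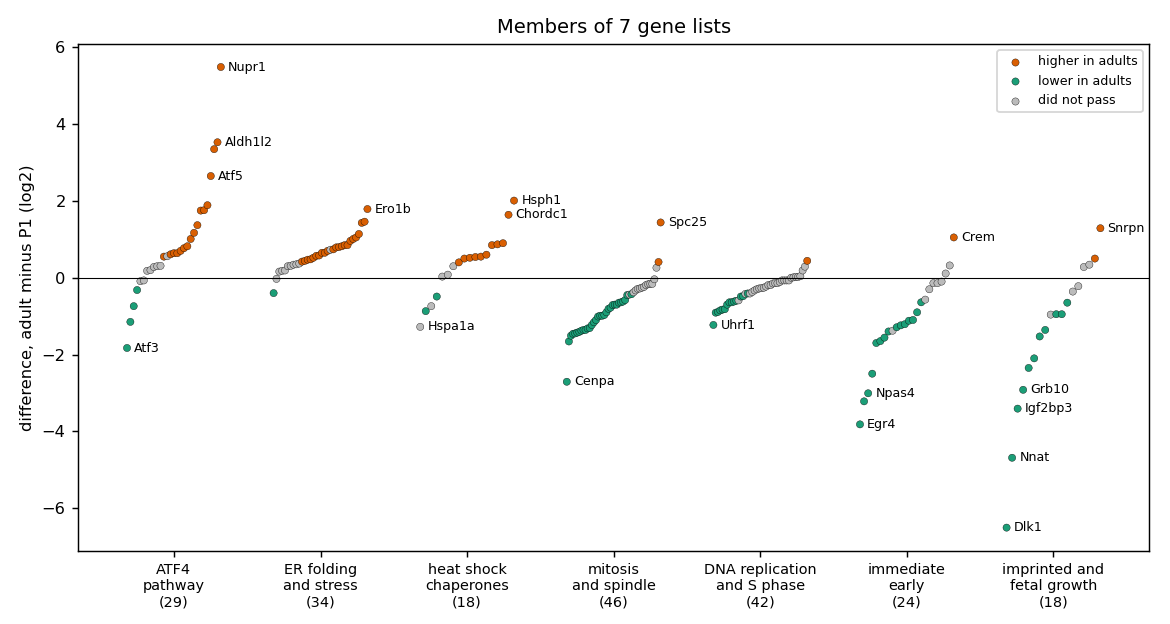
Difference between adults and P1 (y axis, log2) for every member tested of 7 gene lists, sorted within each list, with the number tested in brackets and colour for the outcome of the limma test. ATF4 pathway genes reach 5.49 in Nupr1 with Atf3 at -1.83, endoplasmic reticulum and heat shock genes lie mostly above 0, and mitosis, immediate early and imprinted genes mostly below it, down to -6.51 in Dlk1.

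Immediate early genes, which are switched on within minutes of a stimulus, were lower in adults. 15 of 24 fell (62.5%) and 1 rose, with a median of -1.17, the lowest of the lists with at least 5 genes tested. Egr4 was at 8.71, 8.09 and 8.99 in P1, 6.25 and 7.12 at P10, and 4.99, 4.73 and 4.62 in adults, 14.1-fold lower (adjusted p = 2.5e-06). Only 1 adult sample was above background for Egr4, so the size of this fold is uncertain. Npas4, a factor induced by calcium entry, measured 8.96, 8.55 and 9.14 at P1 and 6.14, 6.72 and 4.77 in adults, and Arc, 8.11, 7.59 and 8.31 against 5.17, 4.82 and 4.36. Fos went from 12.43, 12.22 and 12.45 to 11.78, 11.69 and 10.27, and Junb, whose call ended without P1 replicate 3 or adult replicate 3, from 9.63, 9.29 and 10.06 to 8.66, 8.68 and 6.70. The Fos call ended when P1 replicate 3 and adult replicate 3 were both left out, at -0.59 (adjusted p = 0.075). The list averaged 5.88 in adult replicate 3 against 6.56 and 6.62 in the other adults, and 7.29 to 7.75 at P1. Crem, a cAMP-responsive regulator, rose by 1.05 ± 0.12. In the fit with the acinar term 3 of the 24 were called lower, 12 at an unadjusted p under 0.05, and the median was -1.74 in place of -1.17. The cAMP response element, TGACGTCA, and the CArG box were each found at the start of 1 of the 12 genes that fell and had a sequence, which were too few of the list for a share. No times for dissociation or sorting are in the labels, and their part in these values was not tested.

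Rbm3, an RNA-binding protein induced by mild cold, was at 10, 9.96 and 10.22 in P1, 9.86 and 10.11 at P10, and 6.89, 7.08 and 7.77 in adults, a fall of 7.03-fold (adjusted p = 4.6e-07). The P10 samples were within or just below the P1 range. Cirbp, its relative, fell by 0.40 ± 0.13, a call that ended when either of 2 P1 samples (replicates 1 and 3) or adult replicate 1 or 2 was left out. Of 14 clock genes, 5 fell (35.7%, against 19.9% of all genes tested) and 1 rose, with Per1 and Bhlhe40 falling by 1.10 ± 0.23 and 1.01 ± 0.26. The Bhlhe40 call ended when P1 replicate 3 and adult replicate 3 were both left out. The clock outputs Dbp and Nr1d1 did not pass, at -0.36 and -0.30, and the labels give no hour of collection.

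Genes described as disallowed in adult beta cells, whose products would interfere with glucose sensing, fell in 8 of 20 cases (40%), with a median of -0.50. Oat, ornithine aminotransferase, measured 8.32, 9.10 and 9.26 at P1 and 6.28, 6.66 and 6.59 in adults, with 8.89 and 9.15 at P10. Zyx and Tgm2, a focal adhesion protein and a transglutaminase, fell by 1.5 ± 0.19 and 1.05 ± 0.25. Ldha, lactate dehydrogenase A, was near background throughout, at 4.87, 4.96 and 5.54 against 4.83, 4.53 and 4.4, and did not pass (adjusted p = 0.16). Under the acinar term 1 of the 20 was lower, at a median of -0.59.

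Genes of energy metabolism moved in both directions, where 18.1% of all genes tested rose and 19.9% fell. Of 12 glycolytic genes 3 rose and 3 fell, the largest being Eno2, the neuronal enolase, from 6.04 in each P1 sample to 8.84, 8.71 and 8.67, and Aldoc, an aldolase, which fell by 1.18 ± 0.19. In the citrate cycle 6 of 36 rose (16.7%) and 9 fell (25%), in complex I 1 of 33 rose (3.03%) and 6 fell (18.2%), and in the other complexes with ATP synthase 4 of 37 rose (10.8%) and 8 fell (21.6%). Their medians of 0.03, -0.05 and -0.09 were 0.01, -0.20 and -0.10 with the acinar term. These counts were sensitive to single samples. Citrate cycle risers were 3 without P1 replicate 1, its fallers 4 without P1 replicate 2 or adult replicate 2, and complex I fallers 2 or 3 without P1 replicate 2 or 3 or adult replicate 2 or 3. Cox7a1, another muscle-type subunit of cytochrome c oxidase, fell by 1.96 ± 0.20, opposite in sign to Cox6a2. Of 27 fatty acid genes 9 fell (33.3%) and 4 rose (14.8%), or 2 without P1 replicate 1, and Fabp3, a fatty acid carrier, fell from 7.90, 8.35 and 8.86 to 6.52, 6.67 and 6.18. Cholesterol genes rose in 6 of 19 cases (31.6%), led by Insig1, a sensor of sterols, at 1.11 ± 0.24. Hsd17b7 and Mvd fell, at -0.69 ± 0.15 and -0.62 ± 0.18. With the acinar term 0 were higher even at an unadjusted p under 0.05, and the median was 0.08 in place of 0.15.

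Among genes of protein synthesis and breakdown, more fell than rose, though most did not pass. 19 of 53 ribosomal protein genes fell (35.8%), with a median of -0.19, and the count was 9 without P1 replicate 3 or adult replicate 2 and 11 without adult replicate 3. Of 36 translation factors 15 fell (41.7%), among them Eif4a1, an RNA helicase, by 1.00 ± 0.11, Eif3f by 1.05 ± 0.12 and Eif1a by 1.22 ± 0.14, and 3 rose. Of 33 proteasome subunits 11 fell (33.3%), led by Psme1, an activator subunit, at -1.03 ± 0.15 and Psma5 at -0.85 ± 0.11. The medians of the 3 lists with the acinar term were -0.14, -0.23 and -0.20, against -0.19, -0.24 and -0.26. Ribosomal proteins have many near-identical copies in the genome, so single values are uncertain.

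**Figure D5:**
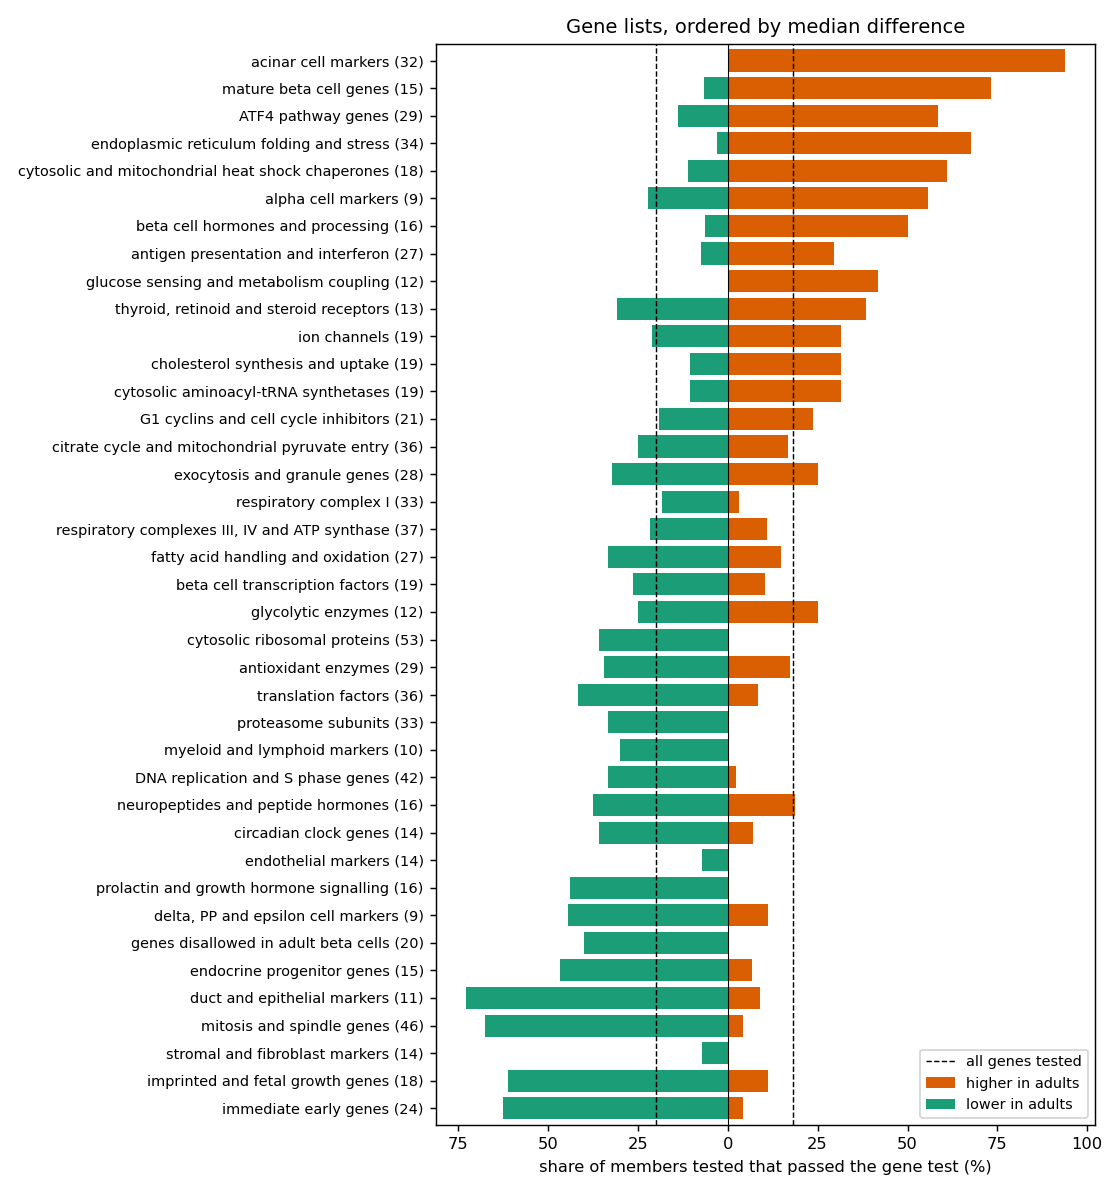
Share of the members tested (x axis, percent) that were higher (right) or lower (left) in adults by the limma test, for each list with at least 5 genes tested, ordered by the median difference and with the number tested in brackets. Dashed lines mark all genes tested, 18.1% higher and 19.9% lower. Acinar, mature beta cell, endoplasmic reticulum and heat shock lists lie far beyond the right line, and duct, mitosis, immediate early and imprinted lists far beyond the left.

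Signalling by prolactin and growth hormone, which drives beta cell growth in pregnancy, was represented by 16 tested genes. Of these 7 fell (43.8%) and 9 did not pass, with a median of -0.44, and 2 fell under the acinar term, at -0.25. Cish, a feedback inhibitor induced by STAT5, measured 10.18, 10.28 and 10.26 at P1, 8.37 and 8.78 at P10, and 7.85, 7.69 and 6.67 in adults, 7.16-fold lower (adjusted p = 1e-06). Stat3, a cytokine-activated factor, fell by 1.01 ± 0.22. Tph1, which makes serotonin, was at 4.97, 5.04 and 5.14 in P1 and in no adult above background, at least 1.07-fold lower. Irs2, an insulin receptor substrate, fell by 1.12 ± 0.38, and its call ended without any 1 of the 3 P1 samples or adult replicate 1 or 3. The prolactin receptor gene was not tested.

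Receptors of lipid-soluble hormones and their partners rose in 5 of 13 cases (38.5%) and fell in 4 (30.8%), the latter becoming 1 or 2 in several fits without 1 sample. The shares over all genes tested were 18.1% and 19.9%. Dio1, a deiodinase that converts thyroid hormone, went from 5.60, 5.95 and 5.30 to 6.79, 7.68 and 8.27, Nr1h3, the oxysterol receptor LXR alpha, rose by 1.36 ± 0.15 and Pparg by 1.03 ± 0.14.

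Antioxidant genes fell in 10 of 29 cases (34.5%) and rose in 5, where 19.9% of all genes tested fell and 18.1% rose. Gpx3, a secreted glutathione peroxidase, measured 11.77, 11.75 and 11.45 at P1 and 9.75, 9.94 and 9.52 in adults. Prdx3, the mitochondrial peroxiredoxin, fell by 1.26 ± 0.22. Metallothioneins moved the other way, Mt1 from 10.31, 10.43 and 10.37 to 12.69, 12.90 and 11.47, and Gstm1, a glutathione transferase, rose by 1.46 ± 0.15.

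Antigen presentation and interferon genes rose in 8 of 27 cases (29.6%) and fell in 2. B2m, the light chain of class I molecules, was at 5.94, 6.34 and 6.91 in P1, 6.88 and 7.27 at P10, and 8.28, 8.27 and 7.54 in adults. Usp18 and Ifi27, both interferon-induced, rose by 1.93 ± 0.18 and 1.96 ± 0.17. Of 10 myeloid and lymphoid markers 3 fell, Cd3e, Cd79a and Laptm5, of which Laptm5 and Cd79a lost their call when single samples were left out, and 7 did not pass. Cd74, the invariant chain of class II molecules, was at 4.42, 4.36 and 4.25 in P1, never above background, and at 4.97, 4.94 and 4.33 in adults, 2 of them above background, and did not pass (0.40). The part of blood cells in the interferon values was not tested.

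Duct and epithelial markers fell in 8 of 11 cases (72.7%, against 19.9% of all genes tested) and rose in 1. Cldn4, a tight junction protein, measured 9.77, 9.76 and 9.77 at P1 and 7.99, 8.34 and 7.36 in adults, and Krt8, a keratin, 10.45, 10.40 and 10.53 against 9.11, 9.28 and 8.96. Krt19 and Sox9 also fell but were near background, with means of 5.38 and 5.2 at P1 and 4.94 and 4.68 in adults. Whether the number of duct cells differed was not tested. Under the acinar term 2 of the 11 were lower, at a median of -0.85 in place of -0.57. Stromal markers had a median of -0.84, but 13 of 14 did not pass, and P1 replicate 3 was far above the other P1 samples. Acta2, smooth muscle actin, for instance, was at 5.84, 6.82 and 8.15 in P1. Of 14 endothelial markers 13 did not pass. Red cell and Schwann cell markers, with 4 and 2 genes tested, had medians of -0.20 and -0.21.

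Other large differences were seen in genes of no list. Serpina10, a protease inhibitor, measured 6.53, 5.96 and 6.33 at P1, 8.01 and 7.86 at P10, and 10.03, 10.02 and 10.21 in adults. Resp18, a protein of endocrine secretory granules, was at 9.30, 9.25 and 9.48 in P1, 11.18 and 11.44 at P10, and 11.81, 11.61 and 11.71 in adults. Ntrk2, the receptor for brain-derived neurotrophic factor, rose by 2.43 ± 0.23, and Adh1, an alcohol dehydrogenase, by 2.53 ± 0.14. Cbs, which opens the transsulphuration path from homocysteine to cysteine, was above background in no P1 sample and in all adults, at least 4.08-fold higher (adjusted p = 1.1e-08). Ddc, which makes dopamine and serotonin, rose from 8.65, 9.41 and 9.03 to 10.79, 10.88 and 11.30. Aldh1a3, a retinaldehyde dehydrogenase, was at background at P1 and at 5.59, 6.25 and 7.53 in adults, at least 3.00-fold higher. These genes were picked after their values were seen.

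Among the falls, Nrep was at 11.52, 11.55 and 11.53 in P1, 10.64 and 10.52 at P10, and 7.59, 8.13 and 7.66 in adults, 13.4-fold lower (adjusted p = 2.4e-10). Cryba2, a crystallin expressed in islets, measured 12.20, 11.93 and 12 at P1 and 9.0, 9.09 and 9.05 in adults. Chst8, a sulphotransferase that modifies hormone glycans, fell by 3.71 ± 0.18. Mycl, a growth-promoting relative of Myc counted in the G1 list, went from 7.57, 7.64 and 7.65 to background in all adults, at least 6.37-fold lower, and Id4, an inhibitor of helix-loop-helix factors, at least 5.63-fold lower. Ffar4, a receptor for long-chain fatty acids, was at 9.92, 9.40 and 9.57 in P1 and at 7.33, 7.39 and 6.21 in adults. Txnip, a thioredoxin inhibitor induced by glucose, fell from 10.76, 10.91 and 10.86 to 8.95, 9.56 and 10.03, with P10 at 9.34 and 8.94.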

How the data were processed

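Signals of 25697 probes per array were deposited by the authors as intensity on a linear scale, with 1 array per sample and groups taken from the titles. Any scaling by the authors is not given in the sources used here. A second table with 24 per-array columns was not used, since its names match no sample. The design had assumed detection p-values, and background was instead estimated from the signals. Values were corrected with normexp (offset 16), quantile-normalized and put on log2. Each array's background limit (p 0.01) was drawn from the peak of its log2 signal density and the spread under that peak, and lay between 40.5 and 47.6 on the linear scale. Probes past it on at least 2 of the 12 arrays were kept (13175). A gene with several kept probes (2348) was represented by the brightest on average. The platform annotation gave 1 symbol to 23978 probes and several to 0, 1719 are unnamed here, and 23962 were matched to RefSeq by gene ID.

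Genes were tested with limma 3.58.1 in R 4.3.3 (lmFit and eBayes on all 12 samples, age as factor with 4 levels, Benjamini-Hochberg over 9181 genes). A gene above background in no sample of an age has its fold as "at least", taken per array against its own level or the dimmest detected probe, whichever was higher. Figures used matplotlib 3.10.9 in Python 3.11.15.

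The comparison, its 42 gene lists and the tests were chosen with earlier results of these data known. The rule for naming genes took the 15 largest rises and falls without overlap, fixed genes, and the 4 smallest p per list, 185 genes in all. Other genes were named after their values were seen. Cdk4 and Prlr were fixed but did not reach the test, and some fixed genes are not reported here. Alternatives changed the background correction, scaling, filter, probes, variance model, weights, samples, block and acinar term. The fit was tested on simulated data. The number of arrays limits the precision.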

Additional observations from a re-analysis of the deposited data

How the results depend on the processing

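The count of genes past the threshold stayed between 2774 and 3725 under every alternative other than the acinar term, against 3486 here, with 2843 to 3212 when 1 sample was left out. With the acinar marker mean as an added term it was 367, and 358 of these reached 2-fold. The 2-fold count was 378 with a normexp offset of 50, which pulls dim probes together by construction, and 659 to 715 with 1 sample left out. Median centring gave 1274 higher and 2100 lower, 37.8% of calls higher against 47.6%. With the replicate number as a block 3525 genes passed, 676 of them by 2-fold, and none of the 233 named genes called lost its call. Deviations of same-numbered samples correlated at 0.12, -0.04 and -0.07, not every sample correlated best with its own number, and the labels give no pairing. Of those 233, 20 lost their call when 1 of the 6 samples was left out, and 156 in at least 1 setting, 147 of them under the acinar term, where 9 more turned sign.

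Values that changed sign were these. With the acinar term, Amy2a5 was at -0.63, Cel at -0.30, Cela3b at -0.66, Rnase1 at -0.12, Try10 at -0.98, Try4 at -0.09, Klk1b27 at -0.99, Klk1b5 at -0.22, Ppy at -1.57 and Neurod1 at -0.21, and Atp5b at 0.08, Dbp at 0.09, Hba-a1 at 0.62, Hbb-b2 at 0.22, Ins2 at 0.05 and Pdx1 at 0.45. The acinar term is itself a mean of acinar markers, so the differences of such markers shrink under it by construction. The median of the acinar list was 0.05 in place of 4.06. With median centring, Ins2 was at 0.13, Neurod1 at -0.06 and Pcsk1 at -0.03. Array weights gave Gcg 0.28 and Hbb-bt 0.07, and the mean of its probes gave Mbp 0.02. Without P1 replicate 3 and adult replicate 3, a choice made after seeing the data, Abcc8 was at -0.05, Gcg at 1.01, Hbb-bt at 0.09, Pcsk1 at -0.03, Pdx1 at 0.06 and Sst at 0.09. Leaving out 1 sample gave Chgb -0.26 to 0.08, Gcg -1.04 to 0.99, Hbb-bt -0.26 to 0.04, Klf1 -0.14 to 0.05, Neurod1 -0.07 to 0.16, Nr1d1 -0.51 to 0.02, Pcsk1 -0.04 to 0.14, Pdx1 -0.12 to 0.09, Ppy -0.52 to 1.22 and Sst -0.37 to 0.06. Apart from the enzyme genes, Klk1b5, Klk1b27 and Atp5b, none of these was called in the fit reported. Other causes of these changes were not tested. Between 41.4% and 46.9% of probes stood above background, the background correction offset understates differences of dim genes, and with 3 samples an age an adjusted p above the threshold does not show equal levels.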
